A study of Mus musculus with 6 samples.

Results

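Macula densa cells were picked out of single-cell RNA sequencing of mouse renal cortex by the transcripts that define them. A barcode was kept as a cell when it held 500 to 60000 unique molecular identifiers (UMIs, each counting 1 captured transcript), 200 to 8000 genes and at most 50% of its UMIs from mitochondrial genes. A kept cell entered the macula densa class when at least 2 of *Nos1*, *Pappa2* and *Ptgs2* had a UMI, when the 3 summed to 3 UMIs or more, and when the podocyte gene *Nphs1*, the endothelial gene *Kdr*, the distal convoluted tubule gene *Slc12a3* and the principal cell gene *Aqp2* each had 1 UMI at most. The cells were thus selected on measured values, and 231 of 30307 kept cells (0.762%) passed.

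The libraries came from 6 mice aged 9 months, 1 library per mouse: 3 were wild type (WT) and 3 lacked *Prdm16* in all tissues (KO), made by CRISPR-Cas9 removal of exon 2. *Prdm16* encodes a zinc-finger transcriptional regulator. The deletion was in every cell type of the KO mice from conception, so an effect on macula densa cells cannot be told apart from an effect of the other tissues on them. Cells were freed by 90 min of collagenase digestion at 37 °C and captured on the BD Rhapsody microwell system.

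The macula densa is a small plaque of epithelial cells at the end of the thick ascending limb (TAL), where the tubule touches the vascular pole of its own glomerulus. Its cells take up luminal salt through the cotransporter NKCC2, the product of *Slc12a1*, and turn the salt load into signals: ATP and adenosine constrict the afferent arteriole, nitric oxide from the neuronal synthase (*Nos1*) opposes that constriction, and prostaglandin E2 made through cyclooxygenase-2 (*Ptgs2*) drives renin release. *Pappa2*, the third gene of the rule, encodes a protease that cleaves insulin-like growth factor (IGF) binding proteins.

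All 6 mice were labelled male, but WT2 and KO1 carried *Xist*, the transcript of the inactive X chromosome, at 299 and 307 CPM (UMIs per 1000000 UMIs), while the other 4 libraries had at most 0.203 CPM. Results were therefore also computed without these 2 libraries, which left 2 WT and 2 KO mice and ended 28 of the 29 gene calls described below. The deposited tables held 96382945 to 121198131 UMIs per library, and 3764 to 6677 cells per library were kept. No macula densa barcode occurred in more than 1 library, against 10 barcodes among all kept cells. Only 1 of the 231 cells fell among the 6% of each library with the highest Scrublet doublet scores.

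WT1, WT2 and WT3 gave 41, 46 and 37 macula densa cells, and KO1, KO2 and KO3 gave 32, 31 and 44. The cells made up 0.765%, 0.848% and 0.769% of kept cells in the WT libraries and 0.479%, 0.725% and 1.17% in the KO libraries. KO1 was the lowest and KO3 the highest of the 6, so that the KO values lay on both sides of the WT values. Mean shares were 0.794% ± 0.047 for WT against 0.791% ± 0.350 for KO (SD, n = 3 each, exact two-sided permutation p = 1, where 0.1 is the smallest value that 3 against 3 can give). Set against the TAL cells of the same library (kept cells with 3 or more *Slc12a1* UMIs and none of *Nos1*, *Pappa2* or *Ptgs2*, 3268 in all), there were 7.66, 9.41 and 6.83 macula densa cells per 100 in WT and 6.04, 5.65 and 7.06 in KO. The means were 7.97 ± 1.32 and 6.25 ± 0.73 (SD, n = 3 each), with KO3 above WT3 (exact two-sided permutation p = 0.2, in a design that cannot go below 0.1).

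**Figure D1:**
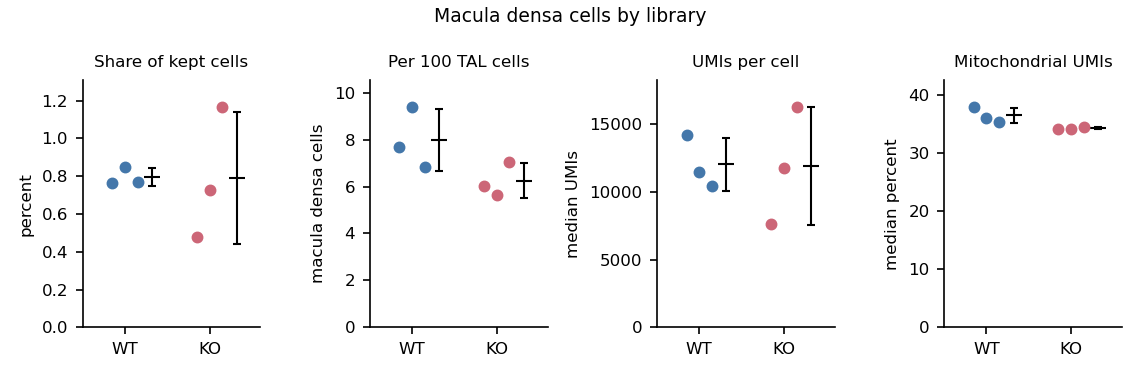
Each point is 1 library and the bar beside each group is its mean ± SD. From left to right the panels give macula densa cells as a percentage of kept cells, macula densa cells per 100 thick ascending limb cells, the median number of UMIs per macula densa cell and the median percentage of mitochondrial UMIs in them. KO1 had the lowest share (0.479%) and the fewest UMIs per cell (7618), and KO3 the highest of both (1.17% and 16306).

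The depth behind the summed profiles differed in the same way. Median UMIs per macula densa cell were 14211, 11472 and 10415 in WT and 7618, 11741 and 16306 in KO, and the summed cells held 267009 UMIs in KO1 against 744329 in KO3. Their median mitochondrial percentage ran from 35.4 to 38.0 in WT and from 34.2 to 34.4 in KO, so the 2 groups did not overlap in this measure. Its part in the gene results was not tested beyond the stricter limit of 30%, which left 9 to 13 cells per library.

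*Slc12a1* fitted the name of the class, while genes known from the macula densa outside the rule were mixed. *Avpr1a*, *Bmp3*, *Robo2*, *Etv1* and *Slc9a2* were higher than in TAL cells in all 6 libraries, and *Ngfr* had both signs. *Ccn1* was lower in all 6, at 81.7 ± 23.9 CPM against 244.6 ± 98.2 CPM (SD, n = 6 libraries). *Oxtr* had 0 UMIs and *Sucnr1* 3 UMIs in macula densa cells. *Slc12a1*, which the rule did not use, was present in 230 of the 231 cells with a median of 48 UMIs, and 89.2% had at least 1 *Umod* UMI (uromodulin, the main secreted protein of the TAL). Among kept endothelial cells, which should lack *Slc12a1*, 9.14% to 16.4% had a UMI of it, at a median depth of 1325 to 1637 UMIs per cell. A *Umod* UMI was present in 35.4% to 48.7% of the same endothelial cells, so *Umod* detection sets the class apart less well. The part of free RNA in the *Umod* share of macula densa cells was not tested. *Nos1*, *Pappa2* and *Ptgs2* were found in 0.870% or less of those endothelial cells. Markers of mesangial and smooth muscle cells (*Pdgfrb*, *Acta2*, *Tagln*, *Myh11*), macrophages (*C1qa*, *Lyz2*, *Adgre1*), T cells (*Cd3e*) and intercalated cells (*Foxi1*) were at 0 in the summed macula densa cells of every library, as were *Slc5a2* and *Cubn* of the proximal tubule. The summed levels of whole marker lists overlapped between the genotypes for podocytes (133 to 180.5 CPM in WT, 165 to 214 in KO), endothelium (18.5 to 46.3 and 9.32 to 52.4), distal convoluted tubule (70.7 to 99.1 and 86.1 to 100.2), connecting tubule and principal cells (28.9 to 73.2 and 14.98 to 36.3), intercalated cells (5.42 to 15.1 and 11.7 to 37.5), and thin limb and parietal cells (61.0 to 112 and 101 to 121). Lists of mesangial, renin, macrophage and lymphoid cells stayed at 14.4 CPM or less in every library. The proximal tubule and neutrophil lists, which did not follow this pattern, are given beside the genes they touch.

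All 3 rule genes were detected together in 144 cells. The other cells entered by 2 genes, and those routes were unequal between genotypes. *Nos1* with *Pappa2* but no *Ptgs2* admitted 16 WT and 27 KO cells, *Pappa2* with *Ptgs2* but no *Nos1* admitted 6 and 5, and *Nos1* with *Ptgs2* but no *Pappa2* admitted 29 WT cells and 4 KO cells. *Pappa2* was thus detected in 76.6% of the WT and 96.3% of the KO macula densa cells, *Ptgs2* in 87.1% and 74.8%, and *Nos1* in 95.2% and 95.3%.

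At the edge of the rule, 10 cells had exactly 3 UMIs of the 3 genes (median 4538 UMIs in all), and 11 cells just outside had 1 UMI of each of 2 of them (median 3332). A further 149 cells had 3 or more UMIs of 1 rule gene alone, 92 of them of *Ptgs2*, and only 74 of these 149 had any *Slc12a1* UMI. The exclusion genes turned away 24 cells.

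Within the class, the levels of the rule genes are a description, since the rule chose on them. *Nos1* stood at 453, 394 and 498 CPM in the WT libraries and at 644, 499 and 443 CPM in the KO libraries. *Pappa2* stood at 314, 206 and 383 CPM in the WT libraries and 1329.5, 725 and 435 CPM in the KO libraries. The KO values of *Pappa2* were all above the WT values, and KO1 was far above the rest. *Ptgs2* stood at 270.3, 608 and 437 CPM in WT mice, against 172, 284 and 294 CPM in KO mice, with overlapping groups.

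To test each of these genes in cells that it had not helped to choose, cells were taken by the other 2 genes alone, a step added after the data had been seen. All cells taken in this way also belonged to the class. Detection of *Pappa2* and *Ptgs2* differed between the genotypes, so the choice of cells was not free of genotype. The 173 cells with *Nos1* and *Ptgs2* (100 WT, 73 KO) numbered 34, 37 and 29 in the WT libraries and 15, 26 and 32 in the KO libraries. In them *Pappa2* was at 268, 188 and 435 CPM across WT, and 1298, 678 and 422 CPM across KO, where KO1 rested on the fewest cells. KO3 thus lay below WT3 in these cells, while KO1 and KO2 lay above every WT library. *Pappa2* rose by 1.42 ± 0.29 on the log2 scale (SE, edgeR adjusted p = 0.0113 over 4951 genes). Without KO1 the edgeR adjusted p was 0.0572, and without the 2 *Xist* libraries the log2 fold change was 0.69 with an edgeR adjusted p of 0.224. For *Nos1*, in 149 cells with *Pappa2* and *Ptgs2*, the log2 fold change came to 0.03 ± 0.20 (SE, edgeR adjusted p = 0.991), with 502, 384 and 534 CPM in the WT libraries and 572, 451 and 410.1 CPM in the KO libraries. For *Ptgs2*, in 186 cells with *Nos1* and *Pappa2*, it was -0.60 ± 0.26 (SE, edgeR adjusted p = 0.520), with 220, 611 and 421 CPM in WT mice, against 173, 284 and 315 CPM in KO mice.

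**Figure D2:**
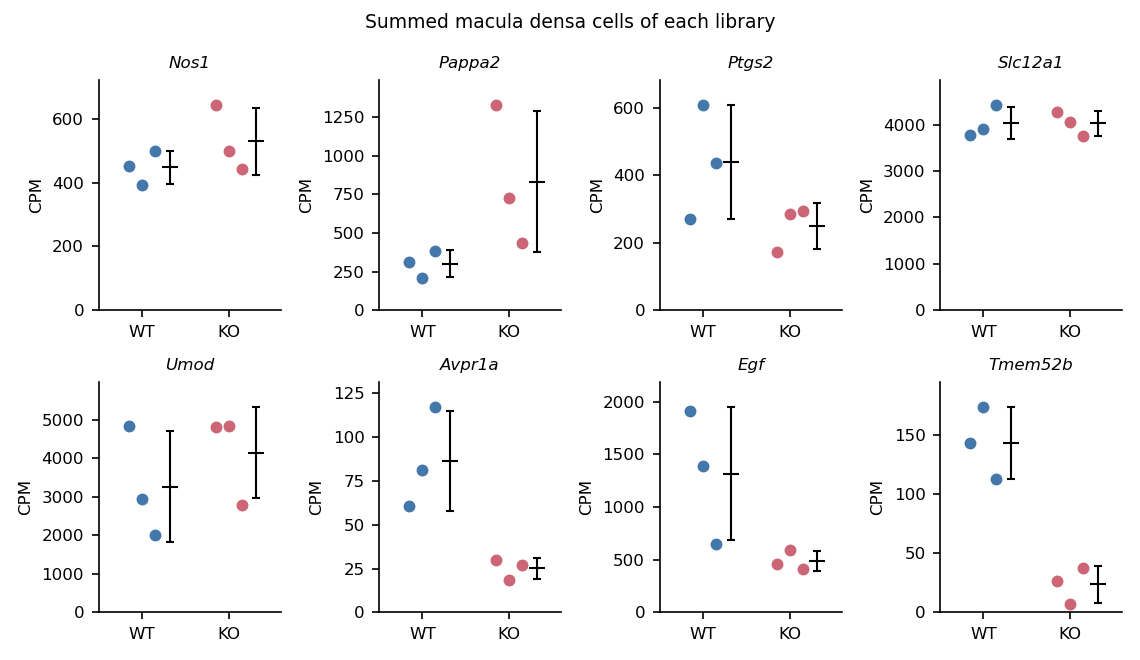
Levels in the summed macula densa cells of each library, in CPM on axes that start at 0. Points are the 3 WT (blue) and 3 KO (red) libraries in the order 1, 2, 3, and the bar beside each group is its mean ± SD. *Slc12a1* lay between 3751 and 4434 CPM in all 6 libraries, whereas the KO values of *Avpr1a*, *Egf* and *Tmem52b* all lay below the WT values. *Nos1*, *Pappa2* and *Ptgs2* chose the cells and are shown as a description.

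Outside the rule genes, few genes were called between KO and WT macula densa cells. UMIs were summed per library and 5439 genes that passed the count filter were tested with edgeR's quasi-likelihood method, with Benjamini-Hochberg adjustment and a threshold of 0.05. The test called 29 of them, 0.533% of those tested: 19 were higher in KO (0.349%) and 10 lower (0.184%), while 435 had an unadjusted p under 0.05. The median log2 fold change over all tested genes was -0.0026. In simulated counts of this depth the test called 53.2% of log2 changes of 1 and 98.8% of changes of 2. The simulation gave every gene the same spread between libraries beyond counting error and did not model the *Xist* libraries. These shares may thus not hold for the real counts. Genes that were not called may therefore still differ. In TAL cells of the same mice, with more summed UMIs in every library, 386 of 10840 tested genes were called. In all 29 the 3 KO values did not overlap the 3 WT values, and over all tested genes 661, or 12.2%, had groups that did not overlap. Log2 fold changes of the called genes ran from 1.07 to 2.85 upwards and from -0.86 to -3.98 downwards.

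The number of calls leaned on single libraries. Without WT1, 5 genes were called, without WT2 13, without WT3 14 and without KO3 19, whereas 23 were called without KO1 and 23 without KO2. *Chd9*, *Gpx3* and *Tmem52b* passed in each of those 6 fits. DESeq2 called 14 of the 29, and with the mitochondrial limit at 30% edgeR tested 1611 genes and called 0, with 80 at an unadjusted p under 0.05. Without both *Xist* libraries *Gpx3* was the only gene called (404 genes had an unadjusted p under 0.05). The other 28 had the same sign there as in all 6 libraries but edgeR adjusted p from 0.0559 (*Chd9*, *Tmem52b*, *Begain*, *Ptges*, *Sall1*, *Nnt* and *Socs2*) to 0.444 (*Enpp2*), and with the *Xist* libraries as a block 32 genes were called, 27 of them among the 29.

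Among the genes of paracrine signals, *Ptges*, the inducible prostaglandin E synthase that acts after cyclooxygenase-2, was at 18.5, 39.7 and 14.6 CPM across WT, and 63.7, 72.2 and 75.2 CPM across KO. Every KO library was above every WT library (log2 fold change 1.51 ± 0.32, SE, edgeR adjusted p = 0.0315), and the call held in 1 of the 6 fits that left out a library, with an edgeR adjusted p of 0.226 without WT1. Of the 10 tested genes of prostaglandin synthesis and transport it was the only one called, and the median log2 fold change of the 10 was -0.01.

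*Arg2*, the mitochondrial arginase that consumes the substrate of nitric oxide synthase, was at 35.3, 72.2 and 43.9 CPM in the WT libraries and 191, 74.6 and 152 CPM in the KO libraries. KO2 was barely above WT2, yet the groups did not overlap (log2 fold change 1.43 ± 0.31, SE, edgeR adjusted p = 0.0400, but 0.288 without WT1). It was the only called gene among 15 tested for nitric oxide synthesis and control, whose median log2 fold change was 0.16.

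*Igfbp4*, an IGF binding protein, was at 36.9, 54.2 and 80.5 CPM in WT mice, against 348, 249 and 107 CPM in KO mice. KO1 was highest and KO3 was close to WT3. It rose by 2.00 ± 0.35 on the log2 scale (SE, edgeR adjusted p = 0.00973), and the call was lost only without WT1 (edgeR adjusted p = 0.0916) among the fits that left out 1 library, and without both *Xist* libraries (0.252). It was the only call among the 7 tested genes of the IGF axis, with a median log2 fold change of 0.12 over the 7. The TAL cells of the same mice had 53.3, 59.6 and 59.0 CPM across WT, and 86.4, 63.3 and 52.7 CPM across KO, with overlapping groups.

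*Avpr1a*, the V1a vasopressin receptor, fell in KO. It stood at 60.4, 81.2 and 117 CPM in the WT libraries and 29.96, 18.6 and 26.9 CPM in the KO libraries, where every KO library had less than the lowest WT library (log2 fold change -1.75 ± 0.31, SE, edgeR adjusted p = 0.0102). The call was lost without WT3 (edgeR adjusted p = 0.0633), without KO2 and without both *Xist* libraries (0.0949). At the level of cells, 55.6% of WT and 27.1% of KO macula densa cells had at least 1 *Avpr1a* UMI, against 0.482% to 2.58% of TAL cells and 0% to 1.08% of endothelial cells per library. By library the macula densa shares were 46.3%, 58.7% and 62.2% in WT and 18.8%, 25.8% and 34.1% in KO. Among all kept cells outside the macula densa class the share was 4.54% to 5.49% per library. These classes differ in UMIs per cell, for which the shares are not corrected. *Avpr1a* was the only call among the 6 tested genes known from the macula densa outside the rule and among the 7 tested hormone and metabolite receptors, with median log2 fold changes of -0.09 and -0.05.

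*Egf*, the epidermal growth factor precursor made by the distal nephron, was at 1912, 1385 and 651 CPM in WT mice, against 457, 597 and 416 CPM in KO mice. WT3 was near KO2, and WT1 was highest. It fell with a log2 fold change of -1.44 ± 0.27 (SE, edgeR adjusted p = 0.0130), but the edgeR adjusted p was 0.125 without WT1 and the call was also lost without WT2, without KO3 and without both *Xist* libraries (0.298). With the mitochondrial limit at 30% the direction turned, at a log2 fold change of 0.64 (edgeR adjusted p = 0.991) on 9 to 13 cells per library. The share of macula densa cells with an *Egf* UMI was 73.2%, 65.2% and 45.9% in WT and 37.5%, 64.5% and 70.5% in KO, so the shares overlapped, and it was 12.3% to 30.9% in endothelial cells. Free RNA can give such UMIs, and its part in the difference was not tested. In the TAL, where 95.3% to 98.8% of cells had *Egf*, the level was 11765 to 13760.0 CPM in WT and 8423 to 9564 CPM in KO, which was also lower (log2 fold change -0.48 ± 0.09, SE, edgeR adjusted p = 0.00932). Of 12 tested secreted and matricellular signals *Egf* was the only one called, and their median log2 fold change was 0.08.

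The machinery of salt entry itself gave no call. *Slc12a1* was at 3781, 3903 and 4434 CPM across WT, and 4284, 4062 and 3751 CPM across KO, with a log2 fold change of 0.0018 ± 0.13 (SE, edgeR adjusted p = 0.999). *Kcnj1*, the apical potassium channel that recycles potassium for NKCC2, was at 287, 253 and 332 CPM in the WT libraries and 333, 354 and 232 CPM in the KO libraries. None of the 12 tested genes of salt entry, recycling and chloride exit was called (median log2 fold change 0.05), and none of 11 in the WNK-SPAK pathway and salt sensing (median -0.13). Over all tested genes 0.533% were called, so most lists of this size would hold no call. Among their members *Atp1b1*, a sodium pump subunit, had a log2 fold change of 0.30 (edgeR adjusted p = 0.564), *Stk39*, the kinase SPAK, of 0.36 (0.686) and *Cul3* of 0.34 (0.719). Only 3 of 24 genes of ATP and adenosine signalling had enough counts to be tested, and none was called.

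Genes of TAL identity gave 2 calls among 20 tested, both lower, with a median log2 fold change of -0.26 over the 20. Of all tested genes 0.184% were called lower. *Tmem52b*, a transmembrane protein gene on chromosome 6, was at 143, 173 and 112 CPM in WT mice, against 26.2, 6.99 and 37.6 CPM in KO mice. The highest KO value was well under the lowest WT value (log2 fold change -2.48 ± 0.33, SE, edgeR adjusted p = 0.00107), and the gene was called whichever single library was left out but not without both *Xist* libraries (edgeR adjusted p = 0.0559). *Egf*, described above, was the other. *Umod* was at 4833, 2952 and 2005 CPM across WT, and 4813, 4849.9 and 2777 CPM across KO, with overlapping groups and a log2 fold change of 0.34 (edgeR adjusted p = 0.830). *Cldn16*, a claudin of the magnesium pathway, was lower in every KO library, at 29.96, 34.96 and 48.4 CPM against 80.6, 66.8 and 119.5 CPM, but did not pass the test (edgeR adjusted p = 0.0852).

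Clock and glucocorticoid-induced genes supplied 4 of the 19 higher calls, which made up 0.349% of all tested genes. *Per2*, a repressor of the circadian clock, was at 13.4, 12.6 and 19.5 CPM in the WT libraries and 44.9, 51.3 and 44.3 CPM in the KO libraries, and *Hlf*, a clock output transcription factor, was at 43.6, 16.2 and 29.3 CPM in WT mice, against 71.2, 93.2 and 75.2 CPM in KO mice. Both sets of groups stood apart, with log2 fold changes of 1.64 ± 0.33 and 1.41 ± 0.30 (SE, edgeR adjusted p = 0.0234 and 0.0324). Of 14 tested clock genes 6 had groups that did not overlap, all 6 higher in KO, against 12.2% of all tested genes in either direction, and the median log2 fold change of the 14 was 0.46.

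*Fkbp5*, the glucocorticoid-induced co-chaperone of steroid receptors, was at 57.1, 50.6 and 39.0 CPM across WT, and 116, 126 and 109 CPM across KO. *Lcn2*, the lipocalin released by injured tubules and also induced by glucocorticoids, was at 16.8, 9.03 and 29.3 CPM in the WT libraries and 89.9, 42.0 and 142 CPM in the KO libraries. *Fkbp5* rose by 1.22 ± 0.23 and *Lcn2* by 2.44 ± 0.42 on the log2 scale (SE, edgeR adjusted p = 0.0137 and 0.00973). Leaving out 1 library ended each of these 4 calls at least once: *Per2* passed in none of the 6 such fits (edgeR adjusted p up to 0.152, without WT1), *Hlf* in 1 (0.186 without WT2), *Fkbp5* in 2 (0.0797 without WT3) and *Lcn2* in 3 (0.0883 without WT1). Without both *Xist* libraries the edgeR adjusted p was 0.273 for *Per2*, 0.311 for *Hlf*, 0.173 for *Fkbp5* and 0.202 for *Lcn2*. Beside *Lcn2*, the 6 neutrophil markers had 50 UMIs in KO3 and 0 or 1 in every other library, and the part of neutrophil RNA in its KO3 value was not tested. *Lcn2* was the only call among 14 tested genes of tubular injury, whose median log2 fold change was 0.73, and *Fkbp5* and *Lcn2* were the calls among 15 glucocorticoid-induced genes (median 0.17).

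*Per2*, *Hlf* and *Fkbp5* were also higher in KO in the TAL cells of the same mice, with log2 fold changes of 1.64, 1.93 and 1.65 (edgeR adjusted p = 7.47e-04, 7.47e-04 and 1.98e-04). Because these genes rose in both cell types, the 250 bases before the RefSeq start of *Hlf* and *Fkbp5* are shown with those of *Avpr1a*. *Avpr1a* fell in macula densa cells and was not called in TAL cells (log2 fold change -1.03, edgeR adjusted p = 0.306), where it had 4.02 CPM or less in every library. The test of the difference between the cell types, described below, did not call it either (-0.65 ± 0.59, SE, edgeR adjusted p = 0.941). All windows are on build GRCm38.p6, each on the strand of its gene. Capitals mark every match, on either strand, to the TATA box TATAAA, the CCAAT box CCAAT, the E-box CACGTG bound by clock factors, or the cyclic AMP response core TGACGT. The *Hlf* window is chr11:90390918-90391167 (minus strand), the *Fkbp5* window chr17:28486150-28486399 (minus strand, inside the annotated span of the gene) and the *Avpr1a* window chr10:122448249-122448498 (plus strand).
Hlf: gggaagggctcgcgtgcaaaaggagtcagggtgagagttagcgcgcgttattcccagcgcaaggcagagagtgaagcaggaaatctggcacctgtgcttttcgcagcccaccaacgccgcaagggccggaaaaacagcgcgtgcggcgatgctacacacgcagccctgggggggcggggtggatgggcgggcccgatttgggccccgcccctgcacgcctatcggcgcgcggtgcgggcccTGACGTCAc
Fkbp5: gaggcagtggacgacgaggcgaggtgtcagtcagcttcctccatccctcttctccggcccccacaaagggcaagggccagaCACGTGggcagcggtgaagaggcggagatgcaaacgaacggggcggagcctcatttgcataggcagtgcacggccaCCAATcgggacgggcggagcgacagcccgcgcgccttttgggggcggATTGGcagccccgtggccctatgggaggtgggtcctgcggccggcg
Avpr1a: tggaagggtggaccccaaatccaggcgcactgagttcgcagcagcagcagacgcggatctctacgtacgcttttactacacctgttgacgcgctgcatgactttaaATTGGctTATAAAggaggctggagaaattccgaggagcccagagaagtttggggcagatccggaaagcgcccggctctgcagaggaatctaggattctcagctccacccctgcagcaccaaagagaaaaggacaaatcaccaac
*Hlf* held overlapping matches to TGACGT on both strands, ending 2 bases before the start, and *Fkbp5* held 1 CACGTG and 2 CCAAT matches. *Avpr1a* held 1 TATAAA and 1 CCAAT match. Over all 32851 windows of this length, 12.4% held TATAAA, 33.9% CCAAT, 6.02% CACGTG and 6.47% TGACGT, among which CCAAT was the most frequent. The matches are a description of these windows and say nothing of which factor acts there.

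Antioxidant genes gave 2 calls among 33 tested, both higher, where 0.349% of all tested genes were called higher. *Gpx3*, the secreted glutathione peroxidase (chromosome 11, 54902453 to 54910377), stood at 42.0, 79.4 and 34.1 CPM in WT mice, against 479, 214 and 208 CPM in KO mice. The lowest KO value was far above any WT value (log2 fold change 2.45 ± 0.33, SE, edgeR adjusted p = 0.00107), and the call held in each fit that left out a library and without the *Xist* libraries (edgeR adjusted p = 0.00116). *Gpx3* is best known from the proximal tubule, and the other 9 proximal tubule markers together gave 0, 6 and 16 UMIs across WT, and 0, 2 and 2 UMIs across KO, against 25, 44 and 14 UMIs of *Gpx3* in WT and 128, 92 and 155 in KO. *Gsta3*, a glutathione transferase, was at 26.9, 12.6 and 24.4 CPM in the WT libraries and 82.4, 60.6 and 57.8 CPM in the KO libraries, again without overlap (log2 fold change 1.599 ± 0.32, SE, edgeR adjusted p = 0.0205, but 0.119 without WT2). *Gsta3* and *Gstm1* below belong to families of near-identical genes whose reads the counting could have divided, so their values are uncertain. *Gstm1*, a glutathione transferase of the mu class, was at 463, 475 and 393 CPM in WT mice, against 554, 482 and 378 CPM in KO mice. Its groups overlapped, at a log2 fold change of 0.07 ± 0.17 (SE, edgeR adjusted p = 0.964). The median over the 33 genes was 0.07.

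**Figure D3:**
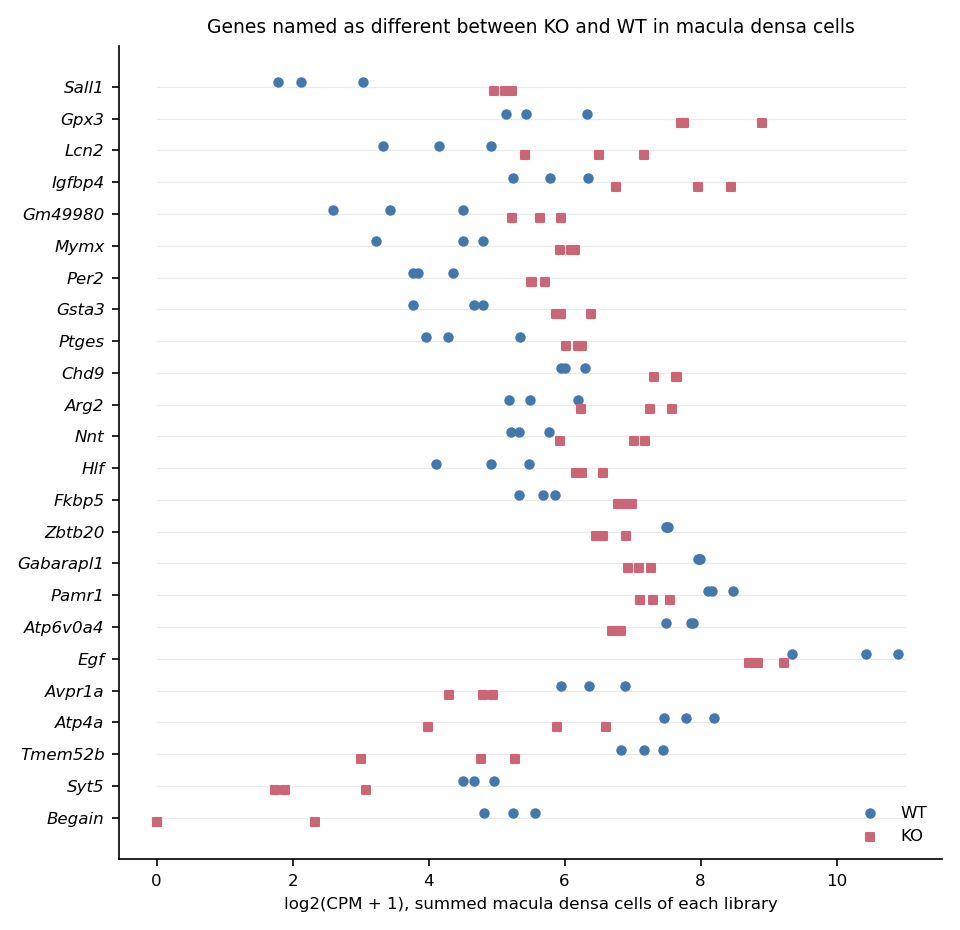
The 24 called genes named by the rule, each with its level in the 3 WT libraries (blue circles) and the 3 KO libraries (red squares) as log2(CPM + 1) of the summed macula densa cells, ordered by log2 fold change. In every row the 2 groups stand apart, and *Begain* lies at 0 in both KO1 and KO2.

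Among transcription and chromatin regulators, *Sall1* (chromosome 8, 89027235 to 89044162), a zinc-finger factor of nephron development, was at 3.36, 7.22 and 2.44 CPM across WT, and 33.7, 30.3 and 36.3 CPM across KO. The WT levels rest on 2, 4 and 1 UMIs and the KO levels on 9, 13 and 27 (log2 fold change 2.85 ± 0.50, SE, edgeR adjusted p = 0.0102, but 0.128 without KO3, and the call was also lost without WT1 and without WT3). TAL cells carried *Sall1* in both genotypes, at 45.2 to 58.5 CPM in WT and 55.9 to 60.8 CPM in KO. *Chd9*, a chromatin remodeller on the same chromosome (90828352 to 91054516), stood at 60.4, 63.2 and 78.0 CPM in the WT libraries and 198, 158 and 200.2 CPM in the KO libraries. It rose by 1.48 ± 0.21 on the log2 scale (SE, edgeR adjusted p = 0.00120), and the call was kept when any 1 library was left out but lost without both *Xist* libraries (edgeR adjusted p = 0.0559). *Zbtb20*, a zinc-finger repressor, was at 179.6, 181 and 183 CPM in WT mice, against 93.6, 119 and 87.3 CPM in KO mice (log2 fold change -0.86 ± 0.19, SE, edgeR adjusted p = 0.0440, and above 0.05 in each fit that left out a library, up to 0.199 without WT1).

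The lower genes *Begain* and *Syt5*, both known from neurons, had few UMIs in KO macula densa cells. *Begain*, which encodes a partner of postsynaptic guanylate kinases, had 22, 15 and 19 UMIs across WT, and 0, 0 and 3 UMIs across KO (edgeR adjusted p = 0.00613, but 0.0883 without WT1). The WT level was 17.2 times the KO level over the pooled UMIs, with an exact 95% interval of 5.604 to 86.1 that covers counting error only. *Syt5*, a synaptotagmin of vesicle release, had 18, 12 and 10 UMIs in the WT libraries and 2, 1 and 2 UMIs in the KO libraries, or 30.2, 21.7 and 24.4 CPM against 7.49, 2.33 and 2.69 CPM (log2 fold change -2.78 ± 0.59, SE, edgeR adjusted p = 0.0315, but 0.228 without KO3). Both genes were near 0 in TAL cells, at 0.527 CPM or less in any library.

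Proton and potassium pumps fell as well. *Atp4a*, the catalytic subunit of the gastric-type proton pump, was at 292, 220.3 and 176 CPM in WT mice, against 14.98, 58.3 and 96.7 CPM in KO mice (log2 fold change -1.83 ± 0.31, SE, edgeR adjusted p = 0.00973). It fell by nearly the same amount in TAL cells, from 217 to 249.6 CPM in WT to 50.5 to 79.3 CPM in KO. *Atp6v0a4*, a subunit of the vacuolar proton pump, was at 235, 231 and 178 CPM across WT, and 112, 103 and 110.2 CPM across KO. The KO values were tightly grouped below all WT values (log2 fold change -0.996 ± 0.19, SE, edgeR adjusted p = 0.0196). Among the fits that left out 1 library, *Atp4a* lost its call only without WT1 (edgeR adjusted p = 0.0916) and *Atp6v0a4* without WT1, WT2, KO2 or KO3 (up to 0.134, without WT1).

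Of the remaining lower genes, *Gabarapl1*, a member of the autophagy family ATG8, lies 13932 bases after *Tmem52b* on the same strand of chromosome 6. It was at 248, 255 and 251 CPM in the WT libraries and 154, 135 and 121 CPM in the KO libraries (log2 fold change -0.90 ± 0.18, SE, edgeR adjusted p = 0.0205, but 0.116 without WT1). *Pamr1*, a secreted peptidase-like protein, was at 285, 274 and 354 CPM in WT mice, against 187, 156 and 137 CPM in KO mice (log2 fold change -0.95 ± 0.18, SE, edgeR adjusted p = 0.0203, but 0.108 without WT3). In both, WT and KO were clearly separate.

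Of the remaining higher genes, *Nnt*, the mitochondrial transhydrogenase that makes NADPH, was at 53.7, 36.1 and 39.0 CPM across WT, and 59.9, 144 and 129 CPM across KO. KO1 was close to WT1 while KO2 and KO3 were far above (log2 fold change 1.42 ± 0.28, SE, edgeR adjusted p = 0.0205, but 0.137 without WT3). The TAL cells showed the same order, with 186, 189.8 and 186 CPM in the WT libraries and 324, 562 and 642 CPM in the KO libraries. *Mymx*, which encodes the muscle fusion peptide myomixer, was at 8.39, 21.7 and 26.8 CPM in WT mice, against 59.9, 67.6 and 69.9 CPM in KO mice (log2 fold change 1.86 ± 0.34, SE, edgeR adjusted p = 0.0113, but 0.0916 without WT1), and the predicted gene *Gm49980* was at 5.04, 21.7 and 9.76 CPM across WT, and 48.7, 60.6 and 36.3 CPM across KO (1.92 ± 0.42, 0.0400, but 0.263 without WT1). The 5 called genes not listed so far were *Enpp2*, *Nfkbiz*, *Ogfrl1*, *Socs2* and *Sult1d1*, all higher in KO by 1.07 to 1.34 on the log2 scale.

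*Prdm16* itself was at 53.7, 34.3 and 43.9 CPM in WT macula densa cells and at 3.75, 44.3 and 21.5 CPM in KO. The groups overlapped (log2 fold change -0.82 ± 0.40, SE, edgeR adjusted p = 0.633), and KO1 rested on 1 UMI. In TAL cells it was at 38.4 to 40.6 CPM in WT and 28.7 to 34.2 CPM in KO (edgeR adjusted p = 0.0970). Transcripts were captured at their 3' end and the deletion covers exon 2, so that these counts do not test whether the gene was disrupted.

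The remaining lists held no called gene, where 0.533% of all tested genes were called. This was so for 8 tested interferon-stimulated genes (median log2 fold change -0.04), 26 genes of the dissociation and immediate early response (0.07), 16 of senescence, p53 and DNA damage (0.08), 49 of nuclear-encoded oxidative phosphorylation and its regulators (-0.04), 25 of protein synthesis and secretion (-0.03) and 5 PRDM family members and partners (0.23). Their members with the lowest p were *Ifi27* (edgeR adjusted p = 0.122) and *Ifit1* (0.139), *Egr1* (0.110) and *Btg2* (0.520), *Gadd45a* (0.406), *Cox6b1* (0.643) and *Atp5e* (0.748), *Xbp1* (0.548) and *Ddit4* (0.620), and *Ctbp1* (0.402). *Egr1*, an immediate early transcription factor, was at 838, 1042 and 912 CPM in the WT libraries and 727, 548 and 508 CPM in the KO libraries, apart but not called.

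Whether the KO effect in macula densa cells differed from that in TAL cells was tested gene by gene, with the mouse as a block and the genotype effect allowed to differ between the cell types. Both effects come from the same mice. Of the 29 genes called in macula densa cells, 27 were tested in TAL cells, 26 had the same sign there and 18 were called with that sign. Over all genes tested in TAL cells, 386 of 10840 were called in either direction. The share of all tested genes with the same sign in both cell types was not computed, so the count of 26 has no background beside it. These 18 were *Arg2*, *Atp4a*, *Chd9*, *Egf*, *Enpp2*, *Fkbp5*, *Gm49980*, *Gsta3*, *Hlf*, *Mymx*, *Nfkbiz*, *Nnt*, *Ogfrl1*, *Pamr1*, *Per2*, *Ptges*, *Socs2* and *Sult1d1*. A difference of the effects was called for 26 of 10723 genes (0.242%), 13 in each direction, and 675 had an unadjusted p under 0.05. Among the 29 it was called for *Gpx3*, *Igfbp4*, *Sall1*, *Tmem52b*, *Atp6v0a4* and *Egf*. Without both *Xist* libraries 28 genes were called, 17 of the 26 among them, and *Egf* was not (edgeR adjusted p = 0.0651).

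*Tmem52b* had the lowest p. In TAL cells it was at 489, 412 and 495 CPM in WT mice, against 344, 443 and 494 CPM in KO mice, overlapping, while the macula densa values fell, and the difference of the log2 effects was -2.44 ± 0.30 (SE, edgeR adjusted p = 5.03e-07). *Igfbp4* gave a difference of 1.74 ± 0.25 (edgeR adjusted p = 1.80e-05), *Sall1* of 2.74 ± 0.49 (9.84e-04), *Atp6v0a4* of -1.19 ± 0.20 (2.32e-04) and *Egf* of -0.86 ± 0.20 (0.0327). For *Gpx3*, which was also higher in KO TAL cells without passing the test there (1.23 ± 0.36, edgeR adjusted p = 0.0858), the difference was 1.29 ± 0.22 (5.29e-04).

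For other genes the effect was nearer 0 in macula densa than in TAL cells. *Sfrp1*, a secreted inhibitor of Wnt signalling, was at 1338, 1455 and 1442 CPM across WT, and 489.6, 610.0 and 517 CPM across KO in the TAL, against 2997, 3076 and 3595 CPM in the WT libraries and 2064, 3267 and 1976 CPM in the KO libraries in the macula densa. The macula densa groups overlapped, and the difference of the effects was 0.96 ± 0.15 (SE, edgeR adjusted p = 8.24e-05). *Zcchc18*, a zinc-finger gene on the X chromosome, was at 13.9 to 18.3 CPM in WT and 64.1 to 90.3 CPM in KO in the TAL, and at 156, 146 and 193 CPM in WT mice, against 315, 189 and 222 CPM in KO mice in the macula densa (difference -1.68 ± 0.21, SE, edgeR adjusted p = 5.03e-07). The heat shock genes *Hspb1* and *Hspa1b* had log2 fold changes of 0.15 and 0.01 in macula densa cells and of 1.31 and 1.32 in TAL cells, none of the 4 called, with called differences of -1.22 ± 0.19 and -1.30 ± 0.25 (SE, edgeR adjusted p = 8.24e-05 and 0.00293). For *Gstm1*, which was higher in KO in the TAL (log2 fold change 0.77 ± 0.09, SE, edgeR adjusted p = 9.94e-04), the difference was -0.71 ± 0.17 and just missed the threshold (0.0536).

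The interferon-stimulated gene *Ifit1* had opposite signs in the 2 cell types. In macula densa cells it was at 16.8, 43.3 and 129 CPM across WT, and 191, 95.6 and 212 CPM across KO, and in TAL cells at 81.9, 293 and 248 CPM in the WT libraries and 109, 165 and 110.1 CPM in the KO libraries. Neither change was called on its own, and the difference was 2.25 ± 0.31 (SE, edgeR adjusted p = 6.77e-06). *Sprr1a*, a cornified envelope gene known as a stress marker, had 0, 1 and 2 UMIs in the macula densa cells of WT mice and 0, 6 and 63 UMIs in those of KO mice. Nearly all of its signal came from KO3, so its called difference of 6.85 ± 1.01 (SE, edgeR adjusted p = 2.53e-05) rests on that library.

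**Figure D4:**
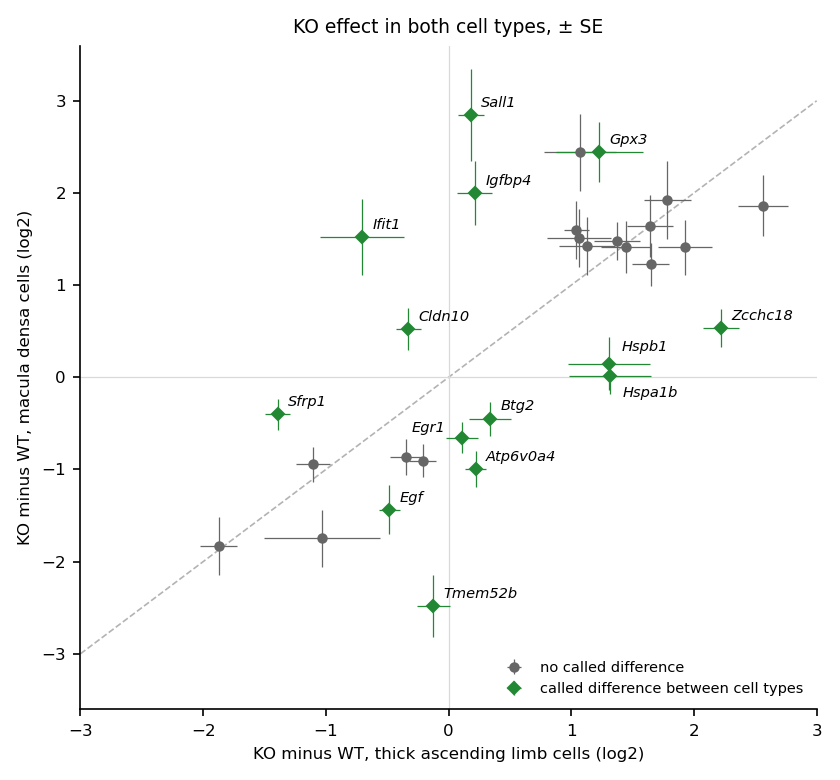
Log2 fold change of KO over WT in thick ascending limb cells (horizontal) and macula densa cells (vertical), each ± SE, for the named genes with a called effect in macula densa cells or a called difference between the cell types and a value in both. Green diamonds are genes with a called difference and the dashed line marks equal effects. *Tmem52b*, *Sall1* and *Igfbp4* lie near 0 on the horizontal axis (-0.12, 0.18 and 0.21), and *Zcchc18* lies at 2.22 on the horizontal and 0.54 on the vertical axis.

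Finally, the genes that set macula densa cells apart from TAL cells are described without a test, because both classes were cut by expression. Among 5647 genes at a mean of 20 CPM or more in either class, and with the genes of the rule, mitochondrial genes and predicted genes left out, 446 were higher in macula densa cells in all 6 libraries with a median difference of 1 or more in log2(CPM + 1), and 216 were lower. The highest differences included 2 bone morphogenetic proteins, *Bmp3* at 164 ± 36.2 CPM in macula densa against 5.02 ± 1.85 CPM in TAL cells and *Bmp2* at 57.8 ± 26.0 against 1.81 ± 1.51 (SD, n = 6 libraries). *Robo2*, a guidance receptor, was at 136 ± 27.5 against 4.04 ± 1.72 CPM, and *Itga4*, an integrin subunit, at 41.3 ± 17.8 against 0.862 ± 0.627 CPM. *Vash2*, *Bex1*, *Aard*, *Ndst4*, *Rerg*, *Luzp2*, *Tmem158* and *Akr1b8* completed the 12, with median log2 differences from 4.09 to 5.19.

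Of the 25 genes listed for TAL identity, 12 were lower in macula densa than in TAL cells in all 6 libraries, 6 were higher in all 6 and 7 had both signs, with a median of -0.29 over their log2 differences. *Car15*, a carbonic anhydrase, was among the higher ones, at 2763 ± 480 CPM against 1029 ± 299 CPM (SD, n = 6 libraries). Among the lower ones *Umod* was at 3705 ± 1275 CPM against 33390 ± 3280.0 CPM and *Egf* at 903 ± 607 against 10960 ± 2124 CPM (SD, n = 6 libraries), whereas *Slc12a1* was at 4036 ± 277 against 5128 ± 246 CPM, where the rule for TAL cells had required it. *Kcnj10*, a basolateral potassium channel, was at 3.10 ± 3.86 against 54.7 ± 10.7 CPM and *Ppp1r1b*, the phosphatase inhibitor DARPP-32, at 5.39 ± 4.77 against 194 ± 42.2 CPM. No UMI of *Tmem207* or *Papss2* was found among 3000012 macula densa UMIs, which allows up to 1.00 CPM at a limit of 3 counts over all libraries, so that they were at least 57.1-fold and 26.5-fold lower than in TAL cells. *Nccrp1*, *Pcsk6*, *Hsd17b14*, *Fam107a*, *Abca13*, *Cacnb4*, *Klhdc8a* and *Sim2* made up the rest of the 12, with median log2 differences from -4.15 to -5.99.

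Several called genes were macula densa genes by this measure. *Pamr1* was at 232 ± 85.1 CPM in macula densa against 21.5 ± 8.99 CPM in TAL cells, *Avpr1a* at 55.7 ± 38.2 against 2.22 ± 1.13 and *Ptges* at 47.3 ± 26.9 against 5.81 ± 2.61 (SD, n = 6). The KO effect on *Pamr1* and *Ptges* was also called in TAL cells (log2 fold change -1.10 and 1.06, edgeR adjusted p = 0.00122 and 0.0448). No difference of that effect between the cell types was called for either gene (edgeR adjusted p = 0.987 and 0.930). *Begain* and *Syt5*, near 0 in TAL cells as given above, averaged 19.1 and 14.8 CPM in macula densa cells and so fell under the 20 CPM minimum. *Tmem52b* and *Egf*, in contrast, were lower in macula densa than in TAL cells in every library, with median log2 differences of -2.90 and -4.09. Of transcription factors, *Etv1*, *Irx1* and *Irx2* were higher in macula densa cells in every library (median log2 differences 3.62, 1.39 and 1.55) and *Esrrb* and *Irx3* were lower (-3.51 and -3.13).

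**Figure D5:**
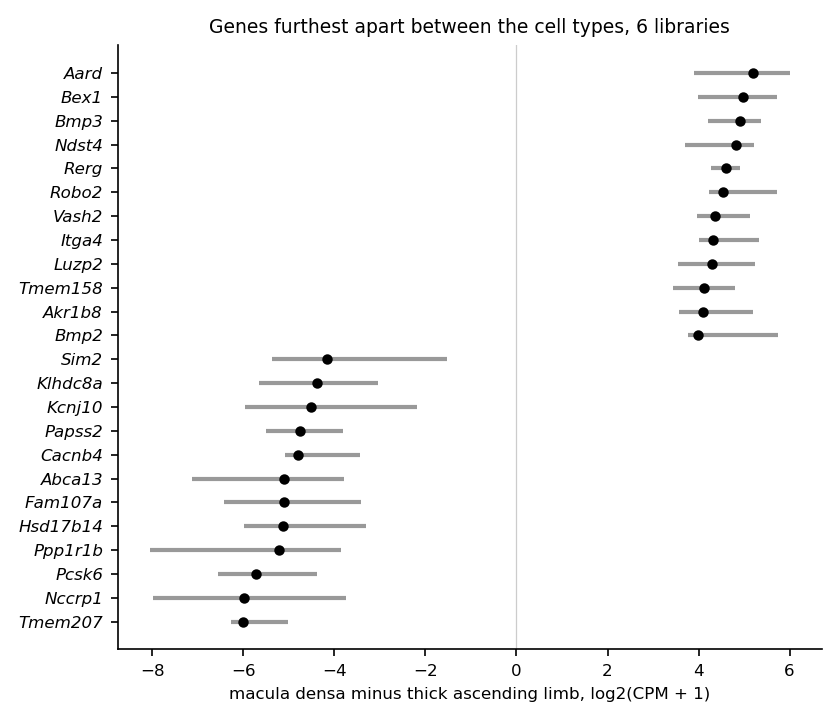
Difference between macula densa and thick ascending limb cells in log2(CPM + 1) for the 12 genes furthest apart in each direction, with the genes of the rule left out. The dot is the median over the 6 libraries and the line runs from the lowest to the highest library. The median differences run from 3.99 for *Bmp2* to 5.19 for *Aard* upwards and from -4.15 for *Sim2* to -6.02 for *Tmem207* downwards.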

How the data were processed

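Single-cell libraries of 6 renal cortices (3 WT, 3 KO) were analysed. The authors digested the tissue, captured cells and polyadenylated transcripts with BD Rhapsody, mapped the reads to mouse build mm10 with the BD Rhapsody pipeline, and worked on the data with Scanpy 1.8 per the labels. The deposited values are UMI counts per gene and barcode, not normalized, per library and before any selection of cells.

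From these counts, cells were kept and classed by the rule given above, and the UMIs of macula densa and TAL cells were summed per library. The members and the gene lists were chosen with earlier results of these data known. CPM are UMIs per 1000000 UMIs of the summed cells. Genes were filtered with filterByExpr (minimum count 10) and tested with edgeR 4.0.16 (TMM, estimateDisp, quasi-likelihood fit, Benjamini-Hochberg, threshold 0.05, R 4.3.3). The difference between cell types was an interaction term in a fit with each mouse as a block. Cell shares were compared by exact permutation. The steps were tested on simulated counts. Nothing beyond the labels of separate mice identifies the replicates, and intervals cover counting error only. Scrublet (in scanpy 1.11.5) scored doublets, and no cell was removed for its score in the results as reported.

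Called genes were named as the 12 with the largest log2 fold change in each direction among those without overlap, every called member of a list or else up to 2 with the lowest p, the 5 lowest p in each direction for the difference between cell types, and the 12 genes furthest from TAL cells in each direction. Not every gene that this rule names is reported here. Alternatives covered DESeq2 1.42.0, RLE size factors, no count filter, mitochondrial limits, other cell rules, doublets, equal cell numbers (31 per library), left-out libraries and a replicate block. Coordinates are from GENCODE vM21 (GRCm38), matched by symbol, and promoter windows from RefSeq (GRCm38.p6).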

Additional observations from a re-analysis of the deposited data

Results flagged for a closer look

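The KO effect differed between macula densa and TAL cells, by the test of the difference itself, for 15 of the named genes. The differences (macula densa minus TAL, log2) were 1.29 for *Gpx3*, 1.74 for *Igfbp4*, 2.25 for *Ifit1*, 6.85 for *Sprr1a*, 2.74 for *Sall1*, 0.88 for *Cldn10* and 0.96 for *Sfrp1* in the positive direction. In the negative direction they were -2.44 for *Tmem52b*, -1.19 for *Atp6v0a4*, -1.68 for *Zcchc18*, -1.22 for *Hspb1*, -1.30 for *Hspa1b*, -0.86 for *Egf*, -0.80 for *Egr1* and -0.82 for *Btg2*. Without both *Xist* libraries the differences for *Egf* and *Egr1* no longer passed (edgeR adjusted p = 0.0651 and 0.275). KO3 alone held 63 of the 69 *Sprr1a* UMIs of KO macula densa cells. Both effects share the same 6 mice, and the explanation of these differences was not tested.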

How the results depend on the processing

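The number of genes called between KO and WT macula densa cells, 29 as reported, was 0 with a mitochondrial limit of 30% (fewer cells and only 1611 genes tested), 5 with 31 cells per library, 14 with DESeq2, 104 without a count filter (14479 genes tested) and 1 without the *Xist* libraries. It ranged from 5 to 23 when 1 library was left out, and was 23 to 34 under the other cell rules, doublet handling, RLE size factors, no mitochondrial limit and the *Xist* block. The replicate numbers in the titles did not pair the mice: deviations of same-numbered libraries correlated at 0.058, -0.069 and 0.049, and only 1 of the 3 pairs matched best with its own number. With the replicate block 74 genes were called, the 29 among them. The difference of the KO effect between cell types, called for 26 genes, was called for 1 at a mitochondrial limit of 30%, 42 without a limit, 43 with *Nos1* and *Pappa2* required, 7 with DESeq2, 6 with the replicate block, 21 to 39 with 1 library left out and 21 to 37 in the rest. Apart from the stated constructions, the cause of these shifts was not tested.

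The difference in the share of macula densa cells (KO minus WT, -0.0032 percentage points) changed sign without a mitochondrial limit (0.072), with *Nos1* and *Pappa2* required (0.155), with a sum of 5 UMIs (0.055), without the highest Scrublet scores (0.0039) and without the *Xist* libraries (0.180), and ran from -0.192 to 0.153 with 1 library left out. The difference per 100 TAL cells (-1.72) became 0.348 without a mitochondrial limit and 0.112 with *Nos1* and *Pappa2* required, and ran from -2.29 to -0.996 with 1 library left out. With 3 mice per group the exact test cannot give a p under 0.1, so these are values without a usable test.

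Among single genes, with the mitochondrial limit at 30% the macula densa log2 fold change was 0.64 for *Egf*, 0.043 for *Atp5e*, -0.00495 for *Hspb1*, -0.12 for *Hspa1b* and -0.090 for *Slc12a1*, the opposite sign to the reported one in each. *Hspa1b* was at -0.0074 with a sum of 5 UMIs. *Slc12a1* was at -0.013 with *Nos1* and *Pappa2* required, -0.013 with a sum of 5 UMIs, -0.011 without cells holding markers of other cell types, -0.0068 without a count filter and -0.055 without the *Xist* libraries, where *Kcnj1* was at -0.075. With 1 library left out the values ran from -0.41 to 0.45 for *Hspb1*, -0.20 to 0.33 for *Hspa1b*, -0.065 to 0.22 for *Gstm1*, -0.053 to 0.060 for *Slc12a1* and -0.051 to 0.26 for *Kcnj1*. Of these genes only *Egf* was called as reported. Over all single-gene values and alternatives, 986 kept their sign and side of the threshold, 166 kept the sign but no longer passed, 13 kept the sign and newly passed and 25 changed sign. Depth limits low genes most: KO1 had 267009 macula densa UMIs, so that 1 UMI there is 3.75 CPM.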

Other observations

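Some genes of the lists stood apart between the genotypes in every library without passing the test. In macula densa cells *Cebpd*, a glucocorticoid-responsive transcription factor, had a log2 fold change of 0.80 ± 0.18 (SE, edgeR adjusted p = 0.0516), *Clu*, a secreted chaperone, of 0.75 ± 0.17 (0.0570) and *Spp1*, the matricellular protein osteopontin, of 0.64 ± 0.16 (0.0780), all higher in KO. The clock output factors *Tef* and *Dbp* had log2 fold changes of 1.44 ± 0.36 and 1.32 ± 0.35 (edgeR adjusted p = 0.102 and 0.120). These 5 genes were picked after their values were seen.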
